A study of Mus musculus with 2 samples.

Results

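Krt7, Krt8, Krt18, Krt19, Spp1, Cldn7 and Tspan8 are genes that are widely used to recognise pancreatic duct epithelium, and here they were followed in the hormone-producing cells of mouse islets. They are 7 of the 32285 features counted in each library. They were chosen from earlier results on these libraries, by how often they were detected in insulin, glucagon, somatostatin and pancreatic polypeptide cells, by how often they met in the same beta cell, and by how they differed between the libraries. Those values are therefore a description, and nothing was tested. The label "duct-like" held in part. All 7 genes were found among the cells with several duct markers, but Krt7, Krt8, Krt18, Spp1, Cldn7 and Tspan8 were also found in endocrine cells, and Krt19 alone was nearly absent from them.

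Keratins are the intermediate filament proteins of epithelia. A type II keratin (here keratin 7 or 8) pairs with a type I keratin (keratin 18 or 19), and the 8/18 pair is the typical filament of simple epithelia, islet cells included, whereas keratins 7 and 19 are classical duct keratins. Spp1 encodes osteopontin, a secreted phosphoprotein that binds integrins, Cldn7 encodes claudin-7, a tight junction and basolateral membrane protein, and Tspan8 encodes tetraspanin-8, a membrane organiser of epithelial cells. Duct and islet cells come from a shared embryonic epithelium.

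Each group was 1 droplet library (10x Genomics 3′ chemistry) of islet cells from 12-week-old female mice on a C57BL/6 background. The control library came from Spop fl/fl mice, and the other from mice labelled SpopβKO, with Spop deleted in beta cells (SPOP brings substrates to a CUL3 ubiquitin ligase). All islets were cultured for 3 days in medium with 10 mM glucose before dispersal, so every level below is that of cultured islets. The Cre driver, the deleted exons and the number of mice pooled are not given in the sources used here. With 1 library per genotype no difference has a replicate check, and each interval is a 95% interval for counting error only.

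The libraries held 82541585 (control) and 89977773 (knockout label) UMIs, which are counts of distinct captured RNA molecules, and 6850 and 8842 cells were kept, with a median of 8870 and 7638.5 UMIs. A cell was called beta-led, alpha-led, delta-led or PP-led when insulin (Ins1 plus Ins2), Gcg, Sst or Ppy made up at least 80% of those hormone UMIs and at least 1% of all its UMIs. This gave 3541 and 6805 beta-led, 1593 and 790 alpha-led, 83 and 76 PP-led, and only 4 and 2 delta-led cells. All 7 beta markers (Iapp, Nkx6-1, Mafa, Slc2a2, G6pc2, Ucn3, Pdx1) were detected in beta-led cells, with a summed level of 14159 and 23349 CPM (UMIs of a gene per 1000000 UMIs, scaled by TMM), higher for each of the 7 under the knockout label. Spop itself, counted at 63.9 and 79.5 CPM in beta-led cells (log2 ratio of knockout label over control 0.31, interval 0.25 to 0.38), was not lower in the library labelled knockout, and 3′ counts need not show the loss of internal exons. The libraries shared 21 barcodes, of which 8 and 17 were among the beta-led cells, and Tspan8, Spp1 and Cldn7 differed by 3.00, 2.15 and 1.00 on the log2 scale without them. Doublets were not removed.

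The 7 genes lie at 6 separate places of the mm10 genome, since only Krt8 and Krt18 are neighbours. Krt8 (ENSMUSG00000049382) spans chr15:101996698-102004482 on the minus strand and Krt18 (ENSMUSG00000023043) chr15:102028180-102032027 on the plus strand, so that they are transcribed away from each other from starts 23698 bases apart. Krt7 (ENSMUSG00000023039), at chr15:101411043-101430313 on the plus strand, belongs to the same keratin cluster. Krt19 (ENSMUSG00000020911) lies in the type I cluster at chr11:100140810-100148665, minus strand. Cldn7 (ENSMUSG00000018569) spans chr11:69964779-69967885, Spp1 (ENSMUSG00000029304) chr5:104435118-104441050 and Tspan8 (ENSMUSG00000034127) chr10:115816832-115849893, all on the plus strand. GENCODE places a transcript antisense to Krt7 (Gm671) and another transcript within Spp1 (Gm42793), and reads of such overlapping genes may not be told apart where strand use is not stated.

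RefSeq held upstream windows for 6 of the 7 genes (not Krt19) on GRCm38.p6. The windows below are those of the neighbours Krt8 and Krt18, which were correlated across cells, and of the 3 genes that differed most between the libraries. Each is written 5′ to 3′ on the gene's strand and shows in capitals the letters of any motif found. It ends at the RefSeq start or, where a GENCODE exon of the gene reaches into the window, at that exon. The Tspan8 window lies inside the GENCODE span of the gene, which starts at 115816832, and so is upstream of the RefSeq start only.
Krt8, chr15:102004483-102004592, minus strand: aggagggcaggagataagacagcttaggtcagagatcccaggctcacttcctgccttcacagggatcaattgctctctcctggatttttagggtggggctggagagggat
Krt18, chr15:102027966-102028179, plus strand: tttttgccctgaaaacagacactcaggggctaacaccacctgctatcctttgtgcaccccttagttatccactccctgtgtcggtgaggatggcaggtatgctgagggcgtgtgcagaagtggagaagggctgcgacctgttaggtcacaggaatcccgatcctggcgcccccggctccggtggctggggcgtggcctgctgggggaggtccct
Spp1, chr5:104434861-104435110, plus strand: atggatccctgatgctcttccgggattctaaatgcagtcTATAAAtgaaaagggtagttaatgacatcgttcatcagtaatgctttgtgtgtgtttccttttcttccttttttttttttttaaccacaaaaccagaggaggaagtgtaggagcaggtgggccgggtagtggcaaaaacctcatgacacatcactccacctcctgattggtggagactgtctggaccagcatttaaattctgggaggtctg
Cldn7, chr11:69964529-69964778, plus strand: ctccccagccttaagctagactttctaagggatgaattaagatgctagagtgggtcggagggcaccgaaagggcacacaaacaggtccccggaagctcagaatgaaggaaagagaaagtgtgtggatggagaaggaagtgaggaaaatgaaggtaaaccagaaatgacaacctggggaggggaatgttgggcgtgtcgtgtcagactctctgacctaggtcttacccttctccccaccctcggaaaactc
Tspan8, chr10:115817034-115817270, plus strand: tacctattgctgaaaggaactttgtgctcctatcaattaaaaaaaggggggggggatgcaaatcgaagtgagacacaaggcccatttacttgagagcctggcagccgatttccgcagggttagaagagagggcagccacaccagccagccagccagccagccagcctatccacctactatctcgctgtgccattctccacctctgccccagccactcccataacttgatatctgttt

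Motifs were searched on both strands in the full windows of 250 bases. The sequence TATAAA stands for the TATA box, TGANTCA for an AP-1 site, and GGGCGG for a GC box, and no match overlapped another. Among 32851 RefSeq windows of that length, 12.4% held TATAAA, 6.75% TGANTCA and 32.7% GGGCGG. The Spp1 window held TATAAA at −211 from the start. The Krt7 window, not printed, held GGGCGG 4 times, and a second start of Cldn7 held it once at −6. The windows of Krt8, Krt18, Tspan8 and the printed start of Cldn7 held none of these letters.

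The keratins of the 8/18 filament were present in every endocrine class. In beta-led cells Krt8 was counted at 178 CPM in the control library and 229 CPM in the library labelled knockout, as unscaled CPM. Alpha-led cells had 220 and 235 CPM of Krt8, and PP-led cells 237 and 168 CPM. Krt18, its partner, was at 199 and 257 CPM in beta-led, 274 and 259 CPM in alpha-led, and 298 and 285 CPM in PP-led cells. Under the knockout label, beta-led and alpha-led cells did not differ beyond counting error in either gene (log2 ratios of alpha-led over beta-led of 0.04, interval −0.04 to 0.12, and 0.01, interval −0.07 to 0.08, on unscaled CPM). With hormone UMIs left out of the totals these ratios were −0.10 and −0.13, which turns their direction. In the control library alpha-led cells were higher in both, by 0.30 (0.25 to 0.36) for Krt8 and 0.46 (0.41 to 0.51) for Krt18.

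Krt7 had another order among the classes. It was at 199 and 231 CPM in beta-led cells, 159 and 128 CPM in PP-led cells and 97.6 and 120 CPM in alpha-led cells, so it was higher in beta-led than alpha-led cells in both libraries (2.04-fold and 1.92-fold). PP-led and alpha-led cells under the knockout label had overlapping intervals (108 to 151 and 112 to 129 CPM). Among the non-endocrine cells (endothelial, immune and mesenchymal, 56 and 105 cells), the level was 13.0 and 22.8 CPM.

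Krt19, the classical duct keratin, was nearly absent from endocrine cells. Beta-led cells held 21 Krt19 UMIs in 16 of 3541 cells and 52 UMIs in 44 of 6805 cells. Alpha-led cells held 1 UMI in the control library and 14 UMIs in 5 cells under the knockout label, with up to 6 in 1 cell. PP-led cells held 0 and 8 UMIs, and 7 of those 8 came from 1 cell. Krt19 was the only one of the 7 below 10 CPM in each of these classes.

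Among beta-led, alpha-led and PP-led cells, Spp1, Cldn7 and Tspan8 were highest in PP-led cells. Spp1 was at 33.3 and 146 CPM in beta-led, 80.8 and 306 CPM in alpha-led and 969 and 827 CPM in PP-led cells, so the order of the classes was the same in both libraries and no neighbouring intervals overlapped. Cldn7 followed the same order, with 85.4 and 168 CPM in beta-led, 139 and 193 CPM in alpha-led and 276 and 334 CPM in PP-led cells. Under the knockout label its log2 ratio of alpha-led over beta-led cells, 0.20 (0.11 to 0.28), was 0.06 when hormone UMIs were left out of the totals. Tspan8 was at 5.13 CPM in control beta-led and 14.9 CPM in control alpha-led cells, neither above the 15.6 CPM of the non-endocrine cells of that library, so no order is read from them. Under the knockout label beta-led cells had 40.3 CPM and alpha-led cells 17.9 CPM, against 5.48 CPM in non-endocrine cells. PP-led cells stood far above these at 334 and 412 CPM, the latter 10.2-fold the beta-led level.

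The delta gate held too few cells for levels, since among 4 and 2 delta-led cells no gene had more than 9 UMIs. With the largest hormone as the only rule, 7 and 13 delta cells gave 9 and 24 Tspan8 UMIs (106 and 241 CPM) and 17 and 33 Cldn7 UMIs (201 and 332 CPM). Cells with at least 3 Hhex and 10 Rbp4 UMIs, both delta genes, numbered 43 and 29, by a rule set after the data were seen. In these, Krt7 was at 172 and 252, Krt8 at 269 and 203, Krt18 at 228 and 278, Spp1 at 184 and 159, Cldn7 at 260 and 321 and Tspan8 at 73.6 and 132 CPM, and Krt19 had 0 UMIs in both libraries. Their median depth, 23987 and 16278 UMIs, was above that of beta-led (9336 and 7685) and alpha-led cells (7741 and 6343.5).

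**Figure D1:**
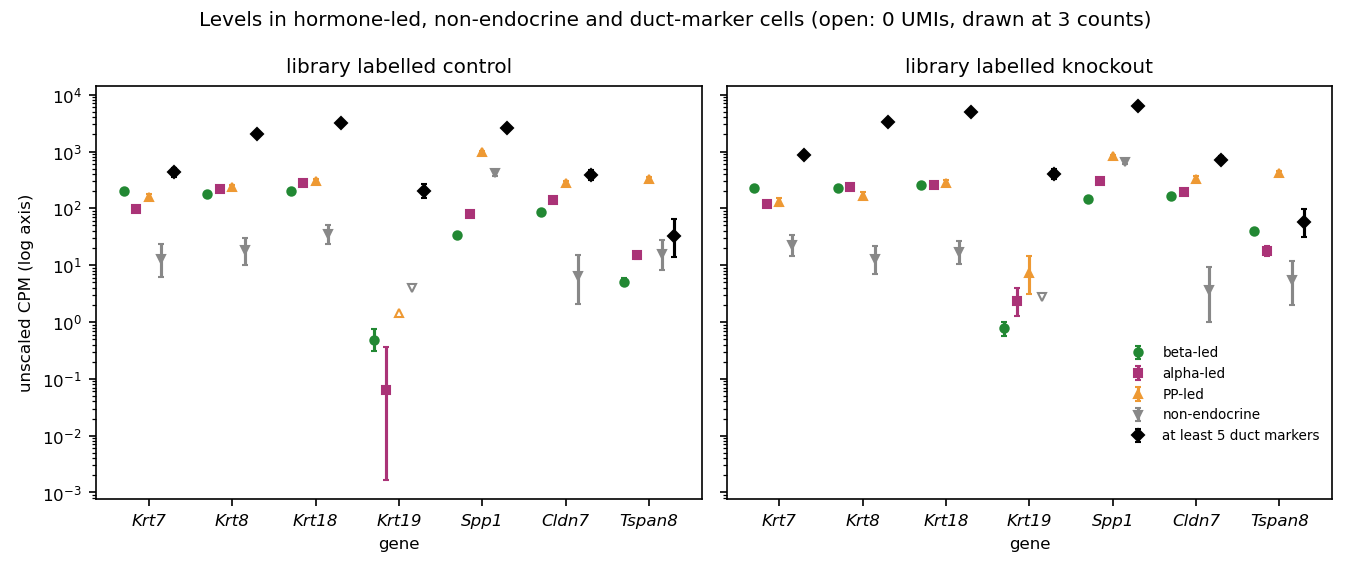
Level of each gene (unscaled CPM, log axis) in beta-led, alpha-led, PP-led, non-endocrine and duct-marker cells of the library labelled control (left) and knockout (right), with bars for exact 95% Poisson intervals and open symbols at 3 counts where no UMI was seen. Krt19 reached 203 and 399 CPM in duct-marker cells and lay under 10 CPM elsewhere, and Tspan8 was highest in PP-led cells.

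Cells with at least 5 of 9 duct markers (among them Sox9, Cftr, Pkhd1, Muc1, Bicc1 and Anxa3) served as a yardstick for duct epithelium. There were 6 in the control library and 8 in the other, with the minimum of 5 set after the data were seen. None of these markers is a member. Krt8 reached 2010 and 3294 CPM in them, Krt18 3174 and 4871 CPM, and Krt7 427 and 869 CPM. Spp1 reached 2625 and 6320 CPM, Cldn7 383 and 721 CPM, and Tspan8 32.6 and 57.6 CPM. Tspan8 was thus the only one of the 7 that was lower in these cells than in PP-led cells of the same library. Krt19 was at 203 and 399 CPM, and these 6 and 8 cells held 50 of the 90 and 97 of the 188 Krt19 UMIs of all kept cells. Of 7 and 12 cells with at least 3 Krt19 UMIs, 4 and 7 carried the duct markers and 1 in each library was beta-led.

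Detection per cell was compared at equal depth. Each cell with at least 5000 UMIs was reduced at random to 5000, which left 2652 and 4317 beta-led, 1343 and 563 alpha-led, 81 and 73 PP-led, and 47 and 73 non-endocrine cells. Non-endocrine cells serve here as the measure of free RNA for keratins, Cldn7 and Tspan8, whereas macrophages and other stromal cells can make Spp1 themselves. After thinning, Krt7 was detected in 50.8% and 62.3% of beta-led cells (58.3% and 60.9% at full depth), against 2.13% and 5.48% of non-endocrine cells. Krt8 was detected in 48.4% and 58.4% of beta-led cells (60.9% and 61.9% at full depth), against 6.38% and 4.11%. Krt18 was detected in 54.8% and 63.7% (67.2% and 66.3% at full depth), against 8.51% and 5.48%. These keratins were thus seen in 48.4% to 63.7% of beta-led cells at a depth where few non-endocrine cells showed them. The full-depth shares cover all beta-led cells, with a median of 9336 and 7685 UMIs, and the thinned shares only those with at least 5000 UMIs, so both the cells and the depth differ between them.

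Cldn7 was detected in 29.3% and 49.6% of thinned beta-led cells (44.3% and 55.8% at full depth), against 2.13% and 0% of non-endocrine cells, where 0 of 73 allows up to 4.11%. Spp1 was detected in 7.20% and 17.4% of beta-led cells (11.8% and 21.2% at full depth), below the 29.8% and 30.1% of non-endocrine cells. Tspan8 was detected in 1.85% of control beta-led cells (interval 1.37% to 2.44%). This is not above the 6.38% (1.34% to 17.5%) of non-endocrine cells, and the share alone cannot be read as expression. At full depth the 12 Tspan8 UMIs of control non-endocrine cells all lay in 7 of the 38 endothelial cells, so they were not spread evenly. In the library labelled knockout Tspan8 was detected in 15.5% (14.4% to 16.6%), above the 1.37% (0.0347% to 7.40%) of non-endocrine cells. The full-depth shares of Tspan8 in beta-led cells were 4.52% and 21.9%. Krt19 was detected in 0.151% and 0.417% of thinned beta-led cells, and in 0 of 47 and 0 of 73 non-endocrine cells, which allows up to 6.38% and 4.11%.

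In alpha-led cells the thinned shares were 33.1% and 39.3% for Krt7, 46.4% and 51.2% for Krt8, 58.2% and 55.4% for Krt18, and 0.0745% and 0.178% for Krt19. Spp1 was detected in 18.0% and 47.2% of alpha-led cells, Cldn7 in 41.0% and 53.5%, and Tspan8 in 5.73% and 7.46%. The Spp1 share of alpha-led cells under the knockout label (interval 43.1% to 51.5%) lay above that of non-endocrine cells (19.9% to 42.0%). In PP-led cells Spp1 was detected in 74.1% and 86.3%, Cldn7 in 74.1% and 68.5% and Tspan8 in 66.7% and 79.5%. Among the 7 genes, 3 in the control library and 5 under the knockout label had a larger share in beta-led than in alpha-led cells. Of all genes seen in at least 2% of thinned cells of either class, 48.5% and 48.2% did, and Krt19 lies below that limit. Krt7 and Krt8 did so in both libraries, and Krt18 and Tspan8 under the knockout label alone. Krt19 was counted in both as well, but on 1 alpha-led cell per library, and its expected share under the knockout label, without a random draw, was 0.376% in beta-led and 0.437% in alpha-led cells.

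**Figure D2:**
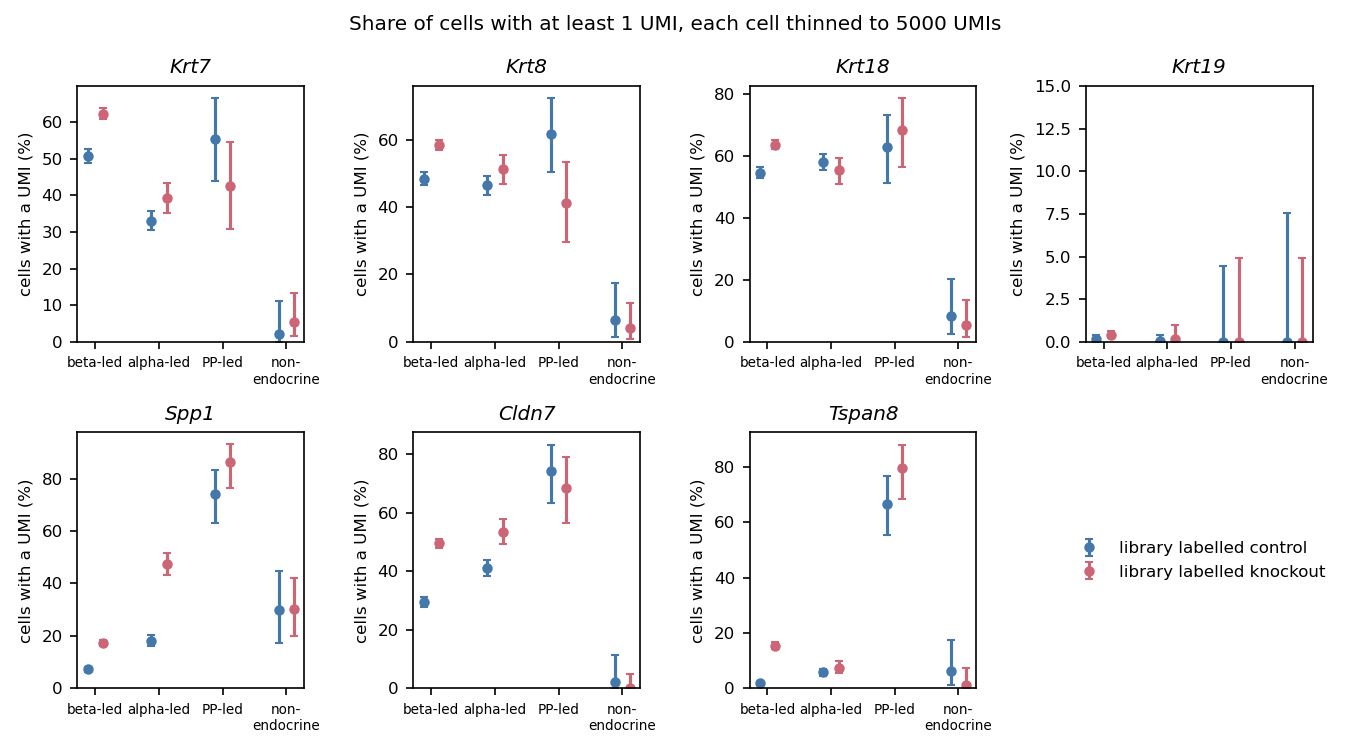
Share of cells (%) with at least 1 UMI of each gene after thinning to 5000 UMIs, by class (x axis) and library (colour), with exact 95% binomial intervals and separate vertical scales. Keratins 7, 8 and 18 were seen in 33.1% to 68.5% of endocrine cells, and Tspan8 in 1.85% and 15.5% of beta-led cells against 66.7% and 79.5% of PP-led cells.

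The genes differed in how their RNA was spread over thinned beta-led cells. The variance of Spp1 was 7.86 and 16.7 times its mean, and its highest single counts were 36 and 87 UMIs. The top 1% of cells held 45.8% and 41.6% of Spp1 UMIs, but also 58.5% and 16.1% of Tspan8 UMIs, a share that is high for any gene seen in few cells. Krt8, at 2.75 and 2.97, and Krt18, at 2.64 and 2.49, were moderately uneven, and Krt7 (1.54 and 1.39), Cldn7 (1.21 and 1.37) and Tspan8 (1.13 and 1.42) were close to the value of 1 that even sampling gives, a ratio that lies near 1 for any gene as rarely counted as Tspan8 in the control library. Beta-led cells with at least 5 thinned Spp1 UMIs numbered 10 in the control library and 142 under the knockout label. Those 142 cells had a median insulin share of 17.2% of UMIs against 12.9% in the 3565 cells with none, and the 10 control cells had 3.48% against 9.72%.

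Between the libraries, Tspan8, Spp1 and Cldn7 were higher in beta-led cells labelled knockout by more than 1.5-fold, and the keratins by less. Tspan8 was counted at 5.09 CPM (TMM-scaled, 220 UMIs) in the control library and 40.6 CPM (2707 UMIs) in the other, a 7.99-fold difference (log2 ratio 3.00, interval 2.80 to 3.20). Spp1 was at 33.0 and 147 CPM, a 4.44-fold difference (log2 2.15, 2.07 to 2.23). Cldn7 was at 84.7 and 169 CPM (log2 1.00, 0.95 to 1.05). Of the 6 genes with a mean of at least 10 CPM, these 3 were past 1.5-fold higher and none was past 1.5-fold lower. Over all 8378 genes at that level, 6.66% were past 1.5-fold higher and 3.74% past 1.5-fold lower, with a median log2 ratio of −0.06. Since the difference between the libraries was among the values that chose the genes, nothing is read from that excess.

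The keratins differed less. Krt18 was at 198 and 259 CPM (log2 0.39, 0.35 to 0.43) and Krt8 at 177 and 231 CPM (log2 0.38, 0.35 to 0.42), so the partners of the 8/18 filament differed by the same amount within counting error. Krt7 was at 197 and 233 CPM (log2 0.24, 0.20 to 0.28). Krt19, at 0.485 and 0.780 CPM, did not differ beyond counting error (log2 0.68, −0.07 to 1.49).

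In alpha-led cells Spp1 alone was past 1.5-fold higher. It was at 80.2 and 308 CPM (log2 1.94, 1.84 to 2.05), where 0.832% of 8536 genes were past 1.5-fold higher and 0.914% past 1.5-fold lower. Cldn7 was at 138 and 194 CPM (log2 0.49, 0.39 to 0.60) and Krt7 at 97.0 and 121 CPM (0.32, 0.19 to 0.45). Krt8 was at 219 and 237 CPM (0.11, 0.02 to 0.20) and Krt18 at 272 and 260 CPM (−0.06, −0.15 to 0.02), close to the median of all genes at −0.01. Tspan8 was at 14.8 and 18.0 CPM (0.28, −0.06 to 0.61), so its difference in beta-led cells was not seen at that size in alpha-led cells. The Krt19 ratio rests on 1 against 14 UMIs (log2 5.18, 2.47 to 10.58). Alpha-led cells under the knockout label also held more insulin RNA. Ins1 was at 321 and 2046 CPM and Ins2 at 2652 and 6822 CPM, with a median insulin share of 0.27% and 0.94% of UMIs. The part of RNA from beta cells in the alpha-led differences was not tested.

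In PP-led cells none of the 6 was past 1.5-fold in either direction, where 5.49% of 8082 genes were higher and 6.84% lower. Tspan8 was at 341 and 403 CPM (log2 0.24, 0.07 to 0.41) and Cldn7 at 282 and 326 CPM (0.21, 0.02 to 0.40). Krt7 was at 162 and 125 CPM (−0.37, −0.67 to −0.08), Krt8 at 243 and 165 CPM (−0.56, −0.81 to −0.31), Krt18 at 304 and 278 CPM (−0.13, −0.33 to 0.07) and Spp1 at 991 and 809 CPM (−0.29, −0.41 to −0.18). Spp1, the gene past 1.5-fold higher in alpha-led cells, was thus lower under the knockout label in PP-led cells, where its level was above that of beta-led and alpha-led cells. The PP-led cells of the libraries were unlike in other ways. Their median depth was 20266 and 10556 UMIs, and their Gcg level 6122 and 1400 CPM. The part of depth and of doublets in these ratios was not tested.

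**Figure D3:**
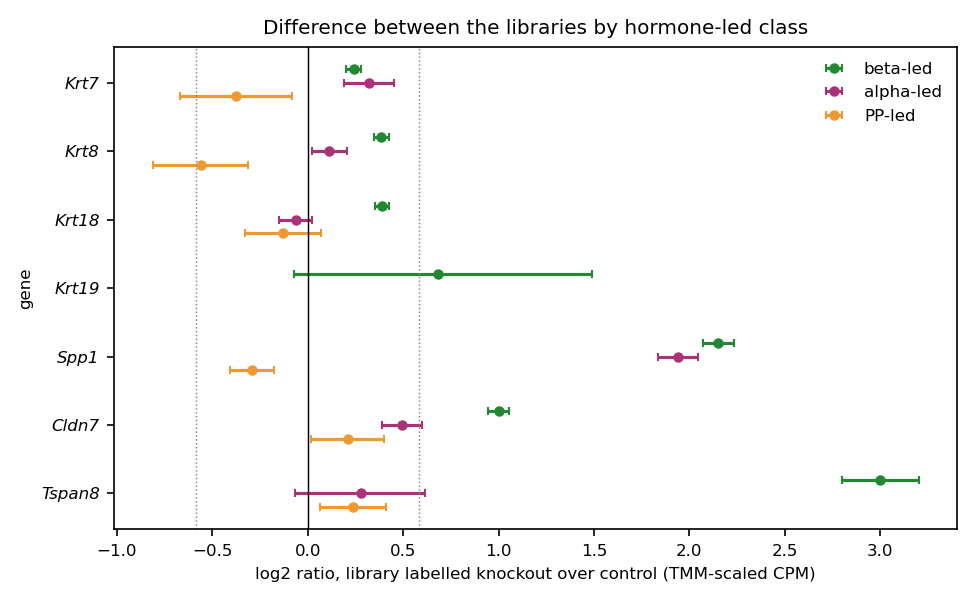
Log2 ratio of the library labelled knockout over control for each gene (TMM-scaled CPM) in beta-led, alpha-led and PP-led cells, with exact 95% counting intervals. Dotted lines mark 1.5-fold, and Krt19 is shown for beta-led cells only. Spp1 stands at 2.15 and 1.94 in beta-led and alpha-led cells and at −0.29 in PP-led cells, and Tspan8 is past 1.5-fold in beta-led cells alone.

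RNA of other cell types also differed between the libraries in beta-led cells. Of the 8378 genes with a mean of at least 10 CPM, 42.3% were higher under the knockout label. Most of the markers counted here lie under 10 CPM, some with few UMIs, so their counts of higher genes also hold counting error. The 9 duct markers summed to 34.0 and 51.7 CPM, 8 of 9 were higher under the knockout label, and Mmp7 was at 0 in both. The 5 markers of pancreatic polypeptide cells summed to 354 and 965 CPM with 3 of 5 higher, nearly all from Pyy (329 and 946 CPM), while Ppy was at 320 and 311 CPM. All 11 immune markers were higher, from a sum of 12.4 to 66.6 CPM, of which C1qa made 5.50 and 49.3 CPM. The 10 mesenchymal markers summed to 1.94 and 10.9 CPM, with 9 of 10 higher and Lum at 0 in both. The 4 delta markers in the table summed to 132 and 197 CPM with 4 of 4 higher, mostly from Rbp4 (108 and 161 CPM). The 7 alpha markers did not share this rise, with sums of 289 and 288 CPM and 3 of 7 higher. Gcg was lower under the knockout label, at 2300 and 1693 CPM. The 10 acinar markers summed to 5.34 and 6.14 CPM with 4 of 10 higher, the 10 endothelial markers to 5.69 and 5.61 CPM with 3 of 10 higher, and the 6 glial markers to 10.1 and 14.9 CPM with 5 of 6 higher. The part of these in the differences of Spp1, Cldn7 and the keratins was not tested. Among beta-led cells without a single Ppy UMI (995 and 3091 cells), a choice made after seeing the data, the log2 ratios were 3.25 for Tspan8, 2.33 for Spp1 and 1.27 for Cldn7. The intervals of Tspan8 (2.69 to 3.86) and Spp1 (2.14 to 2.52) include the values of all beta-led cells, and that of Cldn7 (1.13 to 1.41) lies above its value. In the same cells Krt7 was at 0.55 (0.45 to 0.65), above its value in all beta-led cells. Krt8 was at 0.41 (0.32 to 0.50), and Krt18 at 0.28 (0.21 to 0.36), below its value. The absence of a Ppy UMI also depends on the depth of a cell, which was not matched.

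Tspan8 went with Pyy, which encodes peptide YY, across beta-led cells. Of all genes seen in at least 2% of thinned cells of both libraries, Pyy had the highest correlation with Tspan8 (r = 0.26 over 2652 cells and 0.17 over 4317 cells). In the control library the 49 cells with a Tspan8 UMI had 3490 CPM of Pyy against 170 CPM in the 2603 without, and 2661 against 235 CPM of Ppy. Under the knockout label the 667 cells with a Tspan8 UMI had 1797 CPM of Pyy against 683 CPM in the 3650 without, but 272 against 242 CPM of Ppy. At least 1 Ppy UMI was seen in 61.2% of the cells with Tspan8 and 50.9% of those without in the control library, and in 41.8% and 37.0% under the knockout label, so the high Ppy level of the 49 control cells is a mean over cells of which many had none.

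The insulin content of the cells ordered the differences of several genes. Beta-led cells were divided by insulin RNA into 5 ranges, and levels were taken per 1000000 UMIs other than the hormones. The Spp1 log2 ratio was 0.76 in cells with 1% to 2% insulin, then 1.09, 1.75 and 2.53, and reached 3.23 in cells over 20%. In the library labelled knockout Spp1 went from 99.4 in the lowest range to 306 in the highest, whereas in the control library it went from 58.6 to 32.6. Krt8 and Krt18 ran the other way, with log2 ratios from 1.12 and 0.88 in the lowest range to 0.00 (interval −0.09 to 0.08) and 0.05 (−0.02 to 0.13) in the highest.

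Krt18 itself was higher with insulin in both libraries, from 121 to 375 in the control and from 223 to 390 under the knockout label. Krt7 in the control library was lower with insulin, from 295 to 172, and under the knockout label it was at 308 in the lowest and 261 in the highest range, so that its log2 ratio went from 0.06 to 0.61. The Cldn7 ratio lay between 0.71 and 1.25 over the ranges, and that of Tspan8 between 2.08 and 4.21 with no order, the highest resting on 24 control UMIs. Depth differed between the libraries within a range: cells with 2% to 5% insulin had a median of 8535 and 3793 UMIs.

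**Figure D4:**
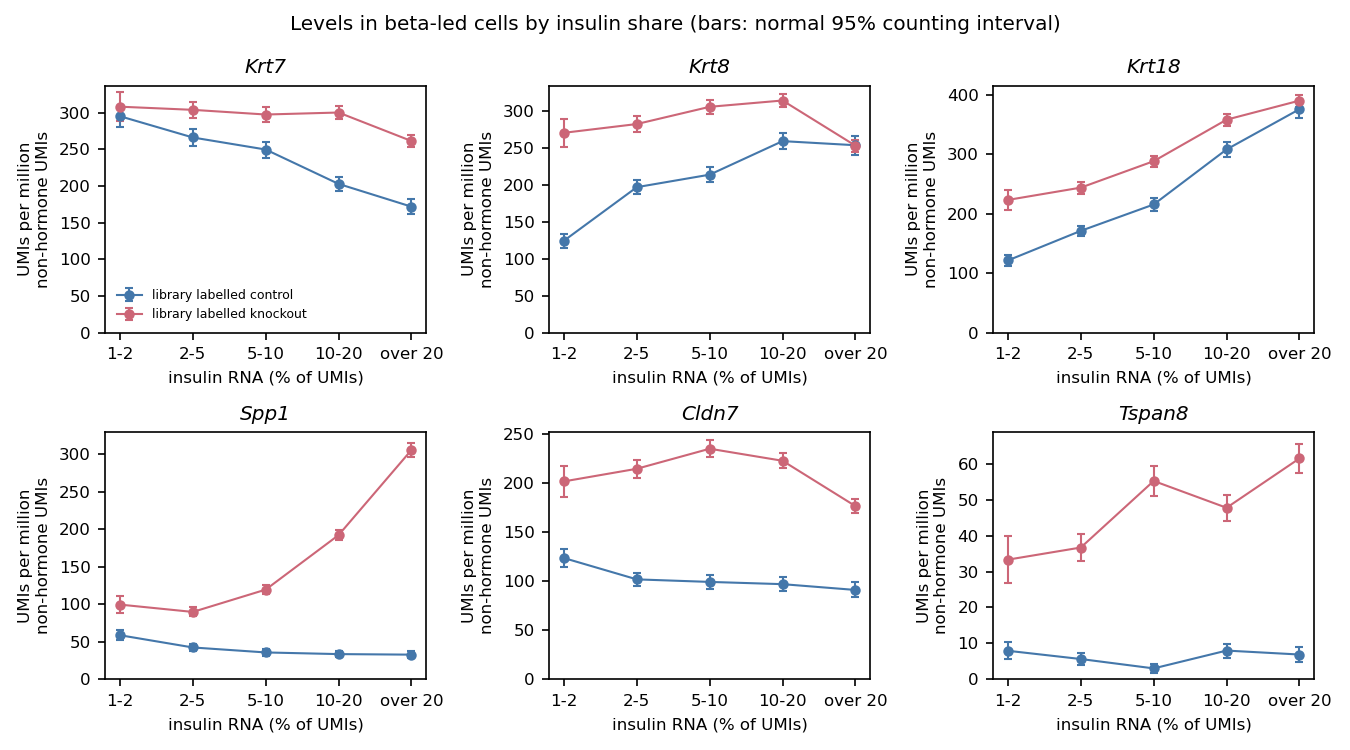
Level of 6 genes in beta-led cells (UMIs per 1000000 non-hormone UMIs) against the share of insulin RNA in the cell, for both libraries, with bars for 95% normal counting intervals. Under the knockout label Spp1 goes from 99.4 to 306 and in the control library from 58.6 to 32.6, and the keratin 8 and 18 curves meet in the highest range.

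Co-detection of these genes in the same beta-led cell was close to that of genes seen in at least 2% of the thinned cells. Over the 21 pairs of genes, thinned beta-led cells with both were more frequent than the product of the shares for 13 pairs in the control library and 17 under the knockout label. Over all pairs of the 9995 and 10285 genes seen in at least 2% of thinned beta-led cells, 67.4% and 64.6% were above the product. Krt19 in both libraries and Tspan8 in the control library (1.85%) lie below that limit, but their pairs are counted among the 21. Without Krt19, whose pairs rest on 14 cells at most, 11 and 13 of 15 pairs were above it. The median ratio of observed to product was 1.11 and 1.04 over these 15 pairs, against 1.05 and 1.03 over all pairs of genes past the 2% limit. In the control library the highest ratios were those of Cldn7 with Tspan8 (21 cells, 1.46), Spp1 with Tspan8 (5 cells, 1.42) and Spp1 with Cldn7 (75 cells, 1.34). The same pairs under the knockout label gave 1.08 (357 cells), 0.895 (104 cells) and 1.04 (388 cells).

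Krt8 with Krt18 was the highest of the 15 pairs under the knockout label (1.09, 1747 cells) and reached 1.10 (775 cells) in the control library. Each was the gene most correlated with the other across cells of both libraries when ranked by the lower value (r = 0.29 and 0.31). Krt7 correlated with Krt8 at r = 0.04 and 0.06 and with Krt18 at r = −0.03 and 0.03. These values share the library and the depth of the cells and are descriptions of sparse counts.

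**Figure D5:**
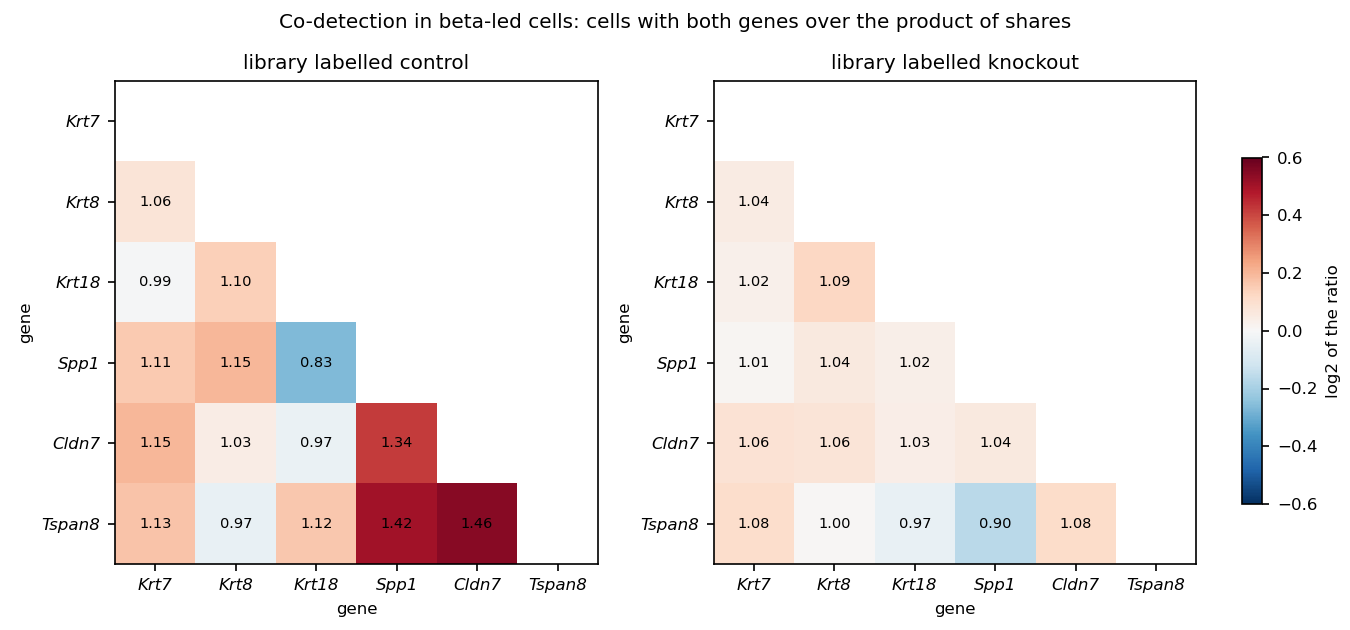
Thinned beta-led cells with both genes of a pair, divided by the number given by the product of the shares, in the library labelled control (left) and knockout (right). Numbers are the ratios and the colour is their log2. Under the knockout label all 15 ratios lie between 0.895 and 1.09, and in the control library between 0.832 and 1.46.

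Counting how many of the 7 genes a thinned beta-led cell showed gave a shift between the libraries. In the control library 9.69% of cells showed none, 25.7% showed 1, 35.4% showed 2, 21.8% showed 3, 6.67% showed 4 and 0.792% showed 5. In the other library 3.59% showed none, 13.7% showed 1, 26.1% showed 2, 31.3% showed 3, 19.5% showed 4, 5.35% showed 5 and 0.440% (19 cells) showed 6. No cell showed all 7. This number is built from the shares of the single genes given above, which were among the values that chose them. No other set of genes was counted in this way, so nothing further is read from the shift.

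Genes whose level followed that number were ranked over 9775 genes, by the lower correlation of the 2 libraries. Cldn7, Krt8, Krt7, Krt18 and Spp1 stood highest because they are counted in the number. Then came ribosomal protein genes, among them Rpl13 (r = 0.23 and 0.23), Rpl8 (0.20 and 0.23), Rpl30 (0.20 and 0.23) and Rps15a (0.20 and 0.21). At the other end, chosen after the values were seen, stood Ins1 (−0.17 and −0.21) and Ins2 (−0.17 and −0.15). All genes of a cell share its 5000 UMIs, insulin included.

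The single genes had different partners across beta-led cells, named after their values were seen. Krt7 was most correlated with Mt1 (r = 0.24 and 0.26), a metallothionein, and Nupr1 (0.24 and 0.22), a stress-induced nuclear protein. Krt8 followed Tnfrsf12a, the TWEAK receptor (0.24 and 0.28), and Hsp90aa1, a cytosolic chaperone (0.21 and 0.29), after Krt18. Krt18 followed Eif1 (0.25 and 0.37) and the ubiquitin gene Ubb (0.22 and 0.22). Spp1 was most correlated with Lcn2, a secreted lipocalin (0.16 and 0.13). Cldn7 had ribosomal protein genes as its nearest genes, the first being Rps2 (0.15 and 0.14).

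Other genes of the same structures were read from lists, with the same limit of 1.5-fold and 10 CPM in beta-led cells. Of 24 genes of epithelial adhesion and tight junctions, 16 reached 10 CPM, 8 of these were past 1.5-fold higher under the knockout label and none past 1.5-fold lower, where 6.66% and 3.74% of all genes were. The median log2 ratio of the 16 was 0.49. Cldn3, another claudin, was at 20.1 and 45.0 CPM (log2 1.16). Cgn, which encodes the junction protein cingulin, was at 10.6 and 21.3 CPM (1.01), the membrane protease gene St14 at 9.71 and 17.1 CPM (0.81), and Cdh1, which encodes E-cadherin, at 63.4 and 108 CPM (0.77). These 4 are the largest of the list, and the log2 ratio of Cldn7, 1.00, lay among them and above the list median.

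Duct identity genes other than the 7 were low. Of 20, only 4 reached 10 CPM and none was past 1.5-fold in either direction, with a median log2 ratio of 0.39. Prom1 was at 20.1 and 27.2 CPM (log2 0.44), Bicc1 at 9.80 and 12.9 CPM (0.39), Dcdc2a at 15.2 and 19.9 CPM (0.38) and Clu at 88.0 and 84.0 CPM (−0.07). Mmp7 and Car2 were at 0 in both libraries. The duct transcription factor gene Sox9 had 8 and 21 UMIs. Cftr, the chloride channel of duct cells, had 0 UMIs in the 3541 control cells and 370 UMIs in 289 of 6805 beta-led cells (4.25%) labelled knockout, at least 80.1-fold higher against a floor of 3 counts over the control class.

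Proteins that anchor keratin filaments differed little. Of 11 such genes 7 reached 10 CPM, none was past 1.5-fold, and the median log2 ratio was 0.18. Dsp (desmoplakin) was at 75.8 and 103 CPM (log2 0.44), Eppk1 (epiplakin) at 25.1 and 30.0 CPM (0.26), Pkp4 at 85.3 and 97.2 CPM (0.19) and Plec (plectin) at 31.9 and 25.6 CPM (−0.32). Among 49 keratin genes 27 were at 0 in both libraries, and only Krt10 reached 10 CPM besides Krt7, Krt8 and Krt18, at 26.1 and 21.2 CPM (−0.30). Krt80 (1.36 and 2.97 CPM, log2 1.12), Krt222 (4.32 and 6.62 CPM, 0.61) and Krt1 (1.85 and 1.52 CPM, −0.29) were above 1 CPM.

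Receptors of osteopontin lay nearer to no difference than Spp1. Of 10 genes 3 reached 10 CPM and none was past 1.5-fold, with a median log2 ratio of 0.19. The integrin genes Itgb1 (119 and 146 CPM, log2 0.29) and Itgav (58.0 and 66.3 CPM, 0.19) were slightly higher under the knockout label, and Itgb5 was lower (37.4 and 29.2 CPM, −0.36). Among 20 tetraspanins and their partners 11 reached 10 CPM, with a median of 0.12, and only Cd151 was past 1.5-fold higher (10.1 and 20.2 CPM, log2 1.00). Cd82 (15.6 and 21.9 CPM, 0.49), Tspan15 (24.5 and 34.0 CPM, 0.47) and Tspan33 (24.2 and 32.3 CPM, 0.41) followed, all far below the log2 ratio of 3.00 of Tspan8.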

How the data were processed

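For each library the authors deposited a table of UMI counts that were not normalized, and its header names Cell Ranger 6.0.0. The submitters' processing notes name build mm10, R 4.1.1 and Seurat 4.1.0, and no step after counting is recorded in the tables. The members, gene lists and thresholds were chosen with earlier results of these data known. Barcodes were dropped below 500 genes or above 15% mitochondrial UMIs. Cells in which endothelial, immune, mesenchymal or glial markers made up at least 0.5% of UMIs, from at least 3 markers, were set aside as non-endocrine before hormone classes were given. Counts were summed over each class and scaled to CPM with TMM factors computed as edgeR does. Ratios have exact conditional, levels exact Poisson and shares Clopper-Pearson 95% intervals, which cover counting error only, and a count of 0 has a floor of 3. The ratio and call steps were tested on simulated data. Genes were counted past 1.5-fold at a mean of at least 10 CPM, with no test. Named genes were the 7, Spop, up to 4 per list with the largest log2 ratio, keratins over 1 CPM and the 10 most like the number of members detected. Positions are from GENCODE on mm10. Scripts ran in Python 3.11.15 with scipy 1.17.1, numpy 2.4.6 and pandas 2.3.3, and matplotlib 3.10.9 drew the plots. The hormone gate, filters, scaling and thinning depth were varied. Some genes that these rules name are not reported here.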

Additional observations from a re-analysis of the deposited data

Results flagged for a closer look

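In PP-led cells 3 genes lay on the other side of no difference from beta-led and alpha-led cells, with log2 ratios of −0.37 for Krt7, −0.56 for Krt8 and −0.29 for Spp1. The difference between the classes was not tested, and each class is 1 sum per library. The PP-led cells also differed between the libraries in median depth (20266 and 10556 UMIs) and in Gcg (6122 and 1400 CPM).

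The filters removed 918 barcodes in the control library and 1191 in the other. Their median UMIs were 1188 and 772, and their median mitochondrial shares 21.9% and 10.3%. These barcodes also held RNA of the 7 genes. How many of all genes were higher there was not counted, and the totals include mitochondrial UMIs. The unscaled levels were 65.9 and 105 CPM for Krt8, 65.9 and 134 CPM for Krt18, 53.5 and 111 CPM for Spp1, 61.6 and 129.6 CPM for Cldn7, and 19.9 and 39.1 CPM for Tspan8. Krt7, at 112 and 118 CPM, did not differ beyond counting error (log2 0.08, −0.23 to 0.39), and Krt19 had 4 and 2 UMIs.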

How the results depend on the processing

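No paired analysis was possible because each genotype has 1 library. Of 374 values recomputed under 19 alternatives (3 of them added after seeing the data), 291 stayed within counting error or 1.5 times the count, and none of the log2 ratios changed sign. The 3 genes past 1.5-fold higher in beta-led cells stayed 3 under all 14 alternatives that apply, and the log2 ratios ranged from 2.65 to 3.52 for Tspan8, 1.96 to 2.59 for Spp1, 0.96 to 1.27 for Cldn7, 0.18 to 0.55 for Krt7, 0.23 to 0.47 for Krt8, 0.21 to 0.48 for Krt18 and 0.28 to 2.33 for Krt19. The number of all genes past 1.5-fold higher, 558 at 10 CPM, was 5849 with no minimum and 136 at 50 CPM. In alpha-led cells 2 genes in place of 1 were past 1.5-fold with a 95% hormone gate. With thinning to 2000 UMIs, 11 in place of 17 pairs under the knockout label were above the product. Thinned shares scale with the depth chosen, as for Tspan8 in beta-led cells under the knockout label (6.42% to 24.4% over all alternatives). Excluding cells with over 0.2% acinar UMIs removed no beta-led cell. Depth limits Krt19 most, with 21 and 52 UMIs in beta-led cells.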
